A study of Homo sapiens with 34 samples.

Results

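The RNA of RPE-1 cells knocked out for FNBP4 was compared with that of cells knocked out for 3 other genes, DDX5, DDX17 and HDAC7. The FNBP4 knockout had 2 libraries and the 3 other knockouts had 6, so 8 of the 34 libraries of the series entered the comparison, chosen by the knockout named in the library label. hTERT RPE-1 is a human line of retinal pigment epithelium kept dividing by telomerase. All 8 libraries came from cells that received, at an estimated multiplicity of infection under 1, a lentivirus coding for a hybrid guide RNA, which joins a Cas9 guide to a Cas12a guide. In each knockout the Cas9 guide was labelled as exonic and the Cas12a guide as intergenic, except in the HDAC7 knockout, described below. Selection with 20 µg/ml puromycin lasted 72 h, and RNA was taken 4 days after its removal, with no isolation of clones described, so each library is a transduced pool. Total RNA was depleted of ribosomal RNA and sequenced with strand information as biological duplicates. The p-values of the main fit rest on the spread between duplicates that is left after the shift shared by replicate number is taken out. The method, limma, also draws each gene's spread toward that of all genes, with 3 residual degrees of freedom against 14.94 from all genes. Most of the weight in the spread behind each p-value thus comes from all genes and not from a gene's own duplicates. A pair of hgRNAs that delete sequence between genes, with 4 libraries, were the study's controls and are given as background levels.

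FNBP4 (formin-binding protein 4) carries WW domains, short modules that bind proline-rich stretches. It binds the proline-rich part of the formin FMN1, one of a family of proteins that nucleate and elongate actin filaments, and it has been found with spliceosome components. DDX5 and DDX17 are paired DEAD-box RNA helicases that act in transcription and splicing. HDAC7 is a class IIa histone deacetylase that represses MEF2 target genes. A Cas9 cut in a coding exon is repaired with small insertions or deletions, and a shifted reading frame can expose the mRNA to nonsense-mediated decay, a pathway that degrades transcripts with early stop codons.

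The guides define what the labels say was cut, so the Cas9 sites found in GENCODE v29 transcripts (GRCh38) are shown with the PAM, the motif that Cas9 needs beside its site, in capitals.
FNBP4 knockout, Cas9 site: gaagtctgggatgagaacacGGG
DDX5 knockout, Cas9 site: aagtctacttgtatctacggTGG
FNBP4 knockout, Cas12a guide: agctgggaaaggtgggtgctgat
The FNBP4 guide of 20 bases matched chr11:47751245-47751264 on the minus strand, inside coding exon 5 of 17 of FNBP4 (exon chr11:47751143-47751290, 148 bases, transcript ENST00000263773.9). The guide lies 26 bases from the exon's 5′ end and 102 bases from its 3′ end, and it matched no transcript of another gene. The DDX5 guide matched coding exon 6 of 13 of DDX5, chr17:64503471-64503490, on the minus strand. The DDX17 guide, taggtggtcgttctcgttac, and the Cas12a guides of the FNBP4, DDX5 and DDX17 knockouts matched no transcript. The labels of the HDAC7 knockout give the FNBP4 guide, gaagtctgggatgagaacac, for both nucleases, so this label names HDAC7 as the target and carries a guide that matches FNBP4 only. These libraries are called the HDAC7 knockout here because that is their label.

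FNBP4 mRNA did not separate the FNBP4 knockout from the other knockouts. Gene levels are junction reads (reads spliced across an intron) scaled to the size of the library, written CPM. FNBP4 stood at 21.03 and 42.7 CPM in replicates 1 and 2 of the FNBP4 knockout. It stood at 28.1 and 38.7 CPM in the DDX5 knockout, 24.6 and 47.7 in the DDX17 knockout and 21.4 and 48.7 in the HDAC7 knockout, with 32.9 to 42.5 in the 4 controls. In every knockout the first replicate was the lower one, and the groups overlapped. The log2 difference was -0.14 (SE 0.12, limma adjusted p 0.607). In the authors' deposited table FNBP4 had an RPKM of 11.08 in the FNBP4 knockout, 11.63, 12.52 and 12.52 in the DDX5, DDX17 and HDAC7 knockouts and 14.25 in the controls. The total level of the mRNA thus does not bear out the label, and the protein was not measured here.

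Reads at the exon that holds the guide site did set the FNBP4 knockout apart. Of all FNBP4 junction reads, 10.19% (33 of 324, 95% Wilson interval 7.34 to 14%) and 10.33% (81 of 784, 8.39 to 12.7%) lay at the 2 junctions of exon 5 in the FNBP4 knockout. The shares were 14.89% and 18.66% in the DDX5 knockout, 17.59% and 18.05% in the DDX17 knockout, 25% and 21.3% in the HDAC7 knockout and 18.48 to 22.26% in the controls. Both FNBP4 knockout libraries were below all 6 other knockout libraries and all 4 controls, with means of 10.26 ± 0.099% (SD, n = 2) and 19.25 ± 3.49% (SD, n = 6). The difference of -8.99 percentage points had an exact two-sided permutation p of 0.0714, taken as double the one-sided value. With this doubling it is the smallest that 28 arrangements of 2 against 6 libraries allow. The libraries were permuted without regard to replicate number. The HDAC7 knockout, whose labels carry the same guide, had the highest shares of the 4 knockouts. This share was looked at after the levels above were known, and the intervals cover counting error only.

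Most of the deficit lay at the junction downstream of the guide site. The intron chr11:47751037-47751142, which joins exon 5 to the next exon, had 28 and 59 spliced reads in the FNBP4 knockout, 67 and 92 in the DDX5 knockout, 61 and 133 in the DDX17 knockout and 69 and 145 in the HDAC7 knockout. Controls had 105 to 136 such reads. Relative to the other junction reads of the gene, this junction was lower by a log2 difference of -1.07 (SE 0.16, unadjusted p 0.000201), which ranked 8 of 72460 introns tested the same way. After adjustment over all introns in limma the p was 0.9999 and no intron passed, so the junction is given as a value only; the test was added after its values were seen. Against the HDAC7 knockout alone the log2 difference was -1.43. A second FNBP4 junction, at the intron chr11:47731562-47732536, differed in the other direction with overlap. It held 10.19% and 8.036% of the gene's reads in the FNBP4 knockout and 3.103 to 8.133% in the other knockouts (log2 difference 0.83, limma unadjusted p 0.00246). This intron spans a cassette exon, chr11:47732117-47732219, included at 4.55% and 5.88% in the FNBP4 knockout and 4.42 to 23.81% in the other knockouts. Controls included it at 16.67 to 31.58%. The exon was not called (limma unadjusted p 0.00918, adjusted p 0.614), and its part in the junction's reads was not tested. In DDX5, the exon with the DDX5 guide held 15.5% and 17.39% of DDX5 junction reads in the DDX5 knockout and 16.69 to 19.79% in the other knockouts. The DDX5 knockout was the lowest in each replicate, its replicate 2 overlapped the others, and both its libraries were below the controls at 19.87 to 22.65%; this difference was not tested.

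**Figure D1:**
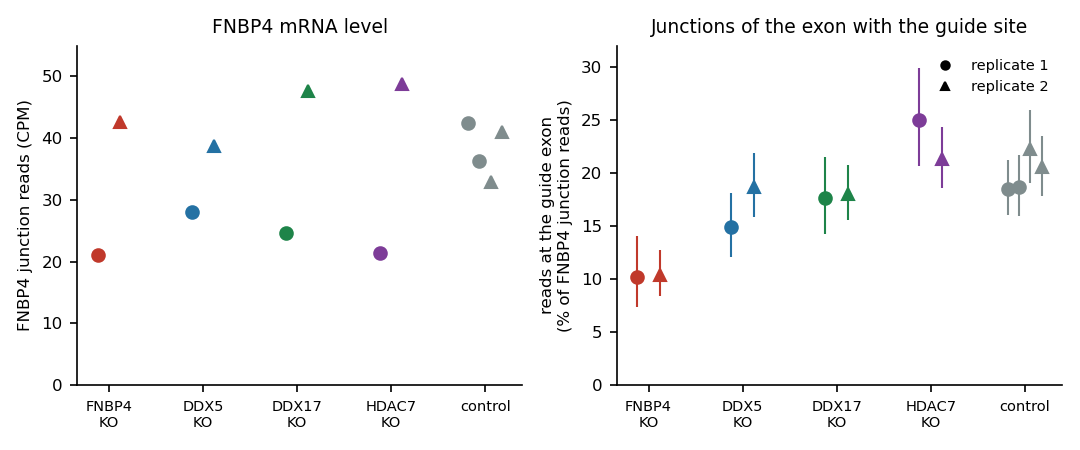
Left, FNBP4 junction reads in CPM in each library of the FNBP4, DDX5, DDX17 and HDAC7 knockouts (KO) and the controls; right, reads at the 2 junctions of the exon with the FNBP4 guide site as a percent of FNBP4 junction reads, with 95% Wilson intervals as bars. Circles are replicate 1 and triangles replicate 2. FNBP4 levels overlap between groups, while the exon shares of 10.19% and 10.33% in the FNBP4 knockout lie below all other libraries shown.

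The 8 knockout libraries held 15080988 to 20233610 junction reads, and replicate 1 differed from replicate 2 in all 4 knockouts. Unspliced reads across exon-intron boundaries made up 0.965% and 1.91% of reads at introns in the FNBP4 knockout, 1.04 to 1.21% in replicate 1 and 1.93 to 2.29% in replicate 2 of the other knockouts, and 2.11 to 2.57% in the controls. The epithelial markers KRT8, KRT18 and TJP1 and the pigment epithelium factors MITF and OTX2 were present in all groups, whereas RPE65, RLBP1, BEST1, TTR and DCT had 0 to 7 reads in each library. Of the 6 retinal pigment epithelium markers tested, none was called. The immune, endothelial, neuronal and glial markers CD3E, CDH5, RBFOX3 and GFAP had at most 1 read, while others of these lists were detected, with 3 to 9 reads of PTPRC, 1 to 7 of PECAM1, 31 to 80 of KDR, 15 to 44 of TEK and 9 to 37 of SNAP25. Summed marker reads were 567 and 670 in the FNBP4 knockout against 591 to 727 for 7 immune genes, mostly CD68 with CSF1R next (36 and 41 against 74 to 133 reads), 69 and 72 against 54 to 99 for 6 endothelial genes, 188 and 299 against 201 to 399 for 7 neuronal and glial genes, mostly MAP2, and 3 and 6 against 2 to 20 for 6 genes of simple epithelium. Reads of erythroid genes, a list added after the values were seen, summed to 14 and 29 in the FNBP4 knockout, 106 and 20 in the DDX5 knockout, 311 and 18 in the DDX17 knockout and 431 and 24 in the HDAC7 knockout, against 3 to 25 in the controls. Of 5 genes of this list tested, 2 were called lower in the FNBP4 knockout (40%, beside 3.00% of all genes), embryonic globin HBE1 and zeta globin HBZ. HBE1 had 8 and 24 reads there, 66 and 14 in the DDX5 knockout, 191 and 12 in the DDX17 knockout and 236 and 15 in the HDAC7 knockout. HBZ had 3 and 1 against 12 and 4, 67 and 2, and 108 and 5 reads in the same order. The wide gaps were thus in the first replicates of the other knockouts, and in replicate 2 HBE1 was highest in the FNBP4 knockout. The part of these reads in the results below was not tested. In these bulk data, fewer cells of a type and less RNA per cell cannot be told apart.

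Against the mean of the 3 other knockouts, 344 of 11452 genes were called at a limma adjusted p under 0.05 (3.00%), 183 higher (1.60%) and 161 lower (1.41%) in the FNBP4 knockout, and 1966 (17.2%) had an unadjusted p under 0.05. The called differences were mostly small, with a median absolute log2 difference of 0.473, and 42 genes exceeded 1 (30 higher and 12 lower). In 212 of the 344 both FNBP4 libraries lay beyond the range of all 6 others (112 above and 100 below), as did 929 of all genes tested (8.11%, 4.17% above and 3.95% below). Within both replicates taken alone, 307 of the 344 lay beyond the range, against 2183 of all genes (19.1%). In 265 of the 344 both FNBP4 libraries also lay outside the range of the controls. The same count was not made over all genes, so 265 has no background to be set against. The count rests on the replicate number as a block in the fit: without it 2 genes were called. It fell to 96 without replicate 1 and 167 without replicate 2 of the FNBP4 knockout and to 175 and 177 without replicate 1 or 2 of the DDX17 knockout, and it was 828 and 1049 without replicate 1 or 2 of the HDAC7 knockout. Leaving out the first replicates of the DDX17 and HDAC7 knockouts, which held the most erythroid reads, was an alternative chosen after seeing the data. It left a single library in each of these groups and reused libraries of the main fit, both FNBP4 ones among them. Agreement of its calls with the 344 was therefore largely set in advance and is no support for them. In that fit limma took the spread of every gene from all genes, with no weight on the gene's own duplicates.

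**Figure D2:**
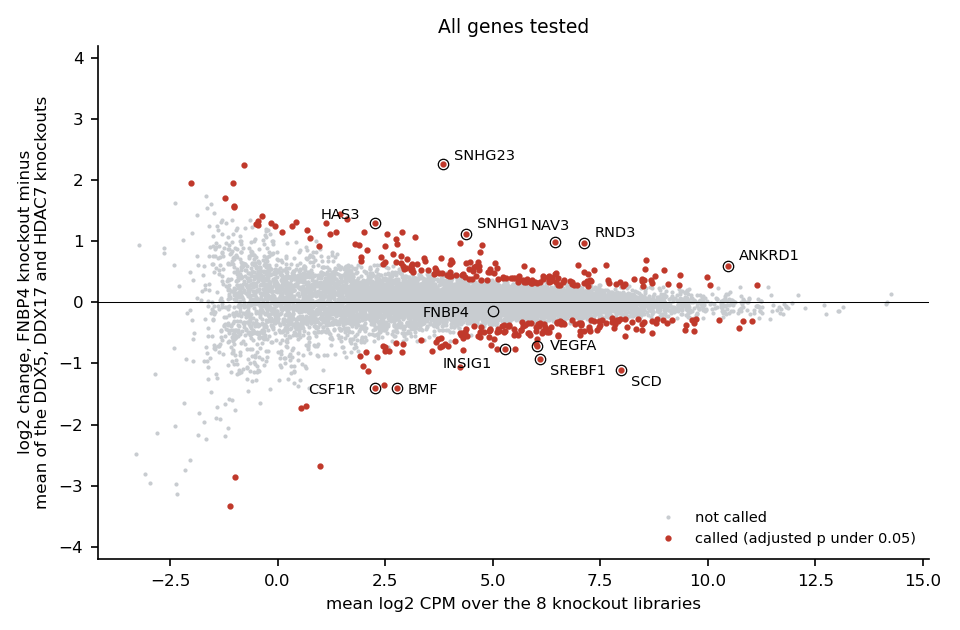
Each point is 1 of 11452 genes, with the mean log2 CPM over the 8 knockout libraries on the horizontal axis and the log2 difference of the FNBP4 knockout from the mean of the DDX5, DDX17 and HDAC7 knockouts on the vertical axis; red points are the 344 genes called at an adjusted p under 0.05. Open circles mark labelled genes, with SNHG23 the highest of them at 2.26, CSF1R and BMF at -1.40 and -1.39, and FNBP4 itself at -0.14 and not called.

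Taken one knockout at a time in the same fit, FNBP4 differed from DDX5 in 324 genes (2.83%, 133 or 1.16% higher and 191 or 1.67% lower), from DDX17 in 819 (7.15%, 453 or 3.96% higher and 366 or 3.20% lower) and from HDAC7 in 171 (1.49%, 67 or 0.585% higher and 104 or 0.908% lower). These comparisons share the FNBP4 libraries, and the difference between the counts was not tested. Counts moved by over 1.5 times when single libraries were left out. The DDX5 count was 43 and 54 without its own replicates 1 and 2, 91 without FNBP4 replicate 1, 155 and 170 without DDX17 replicates 1 and 2 and 1012 and 1030 without HDAC7 replicates 1 and 2. The DDX17 count was 159 and 163 without its own replicates, 424 and 408 without FNBP4 replicates 1 and 2 and 1655 and 1686 without HDAC7 replicates 1 and 2. The HDAC7 count was 295 and 711 without its own replicates, 64 without FNBP4 replicate 1 and 90 without DDX17 replicate 1.

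Among the genes of largest difference were 4 long noncoding RNAs, 3 higher and 1 lower. SNHG23, listed by RefSeq as MEG8 in the imprinted cluster of chromosome 14 (chr14:100889649-100999113, GRCh38.p14), was the highest of the named genes by log2 difference. It stood at 54.8 and 40.2 CPM in the FNBP4 knockout, 11.7 and 8.74 in the DDX5 knockout, 9.08 and 6.96 in the DDX17 knockout, 14.1 and 9.34 in the HDAC7 knockout and 9.27 to 10.0 in the controls. It was 4.81-fold higher (log2 2.26, SE 0.10, limma adjusted p 1.12e-10), and both FNBP4 libraries were above every other knockout and control library. In the authors' deposited table, MEG8 had an RPKM of 71.47 in the FNBP4 knockout, 18.8, 22.16 and 17.89 in the DDX5, DDX17 and HDAC7 knockouts and 19.02 in the controls. MEG3, the neighbouring maternally expressed RNA of the same cluster, looked at after its values were seen, did not follow: it had 1.49 and 21.9 CPM in the FNBP4 knockout and 0.620 to 19.6 in the others (log2 0.44, limma adjusted p 0.210).

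SNHG1, the host transcript of a set of small nucleolar RNAs and a target of nonsense-mediated decay (chr11:62851988-62855914), stood at 32.6 and 46.4 CPM in the FNBP4 knockout. It had 10.2 and 23.7 CPM in the DDX5 knockout, 10.3 and 26.4 in the DDX17 knockout, 14.03 and 26.5 in the HDAC7 knockout and 21.3 to 23.3 in the controls, and was 2.17-fold higher (log2 1.12, SE 0.13, limma adjusted p 9.61e-05). Replicate 1 was the lower in every knockout, and the FNBP4 libraries were still above all others. FIRRE, an X-linked RNA that shapes nuclear organisation, had 14.7 and 12.2 CPM against 4.44 to 7.74 in the other knockouts and 4.89 to 6.80 in the controls (log2 1.14, SE 0.13, limma adjusted p 0.000114). MIR31HG, the host gene of a microRNA, went the other way, with 13.6 and 8.76 CPM against 15.04 to 34.4 and 17.5 to 20.4 in the controls (log2 -1.05, SE 0.13, limma adjusted p 0.000263). Against HDAC7 alone the MIR31HG difference was -0.51 and not called (adjusted p 0.149). Of 21 nonsense-mediated decay factors and targets tested, SNHG1 was the 1 called (4.76%, beside 3.00% of all genes). The list's median log2 difference was 0.06, against 0.0054 over all genes.

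**Figure D3:**
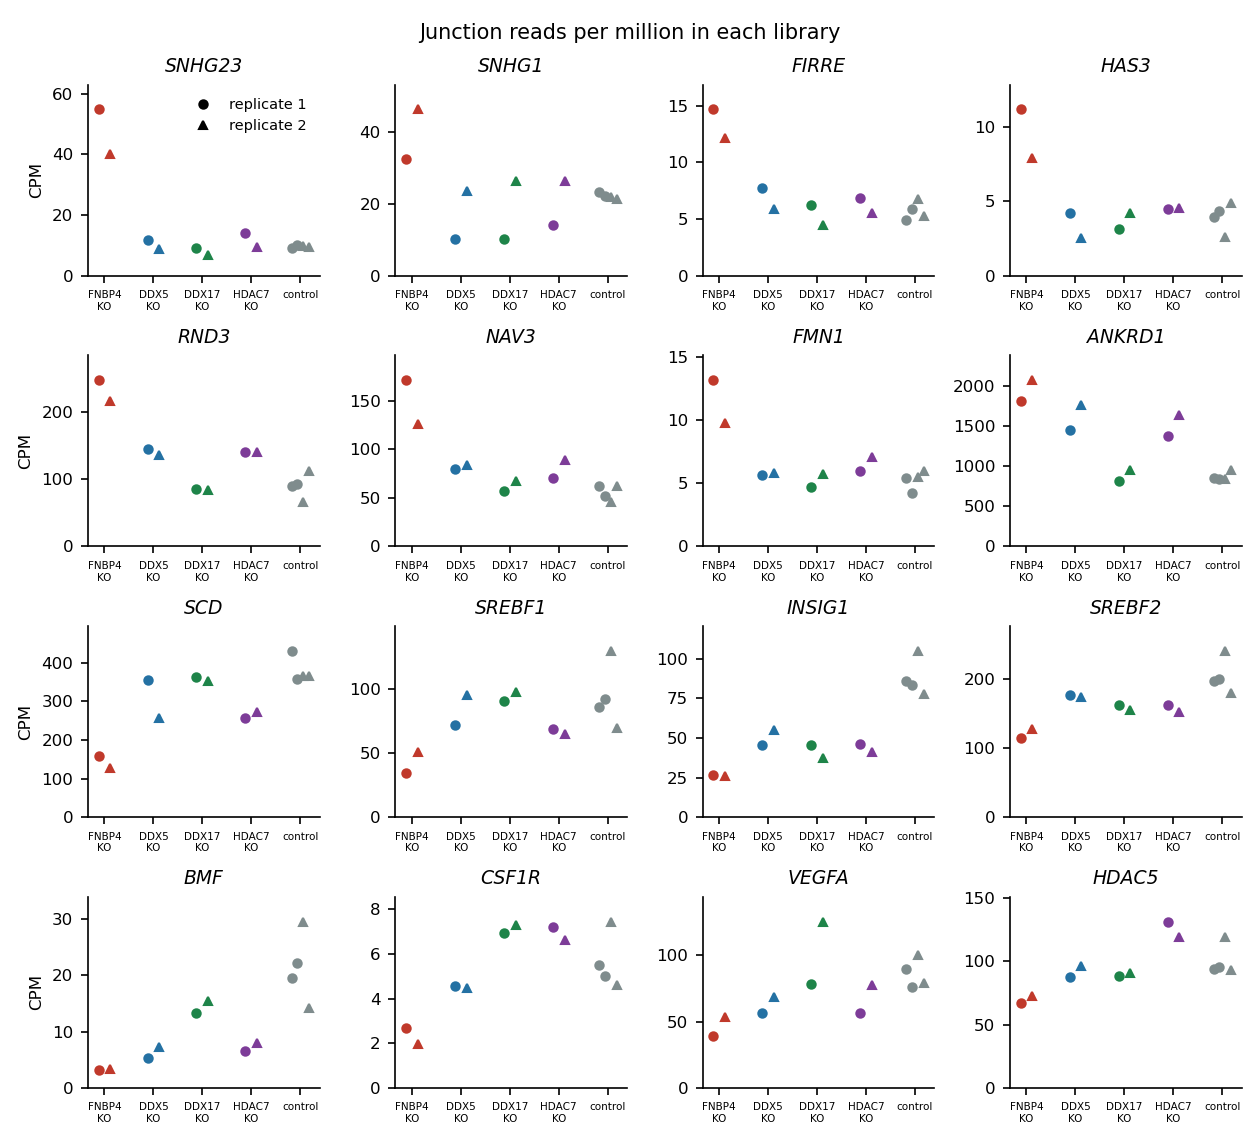
Junction reads (CPM, linear axes from 0) of 16 genes in each library of the FNBP4, DDX5, DDX17 and HDAC7 knockouts (KO) and the controls; circles are replicate 1 and triangles replicate 2. In the upper 2 rows the FNBP4 knockout libraries lie above all libraries of the other knockouts, and in the lower 2 rows below them.

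Among formins and their regulators, 2 genes rose and 2 fell of 25 tested (16%, beside 3.00% of all genes), with a list median of 0.02. RND3, an atypical small GTPase that lowers actomyosin contractility, stood at 247 and 216.4 CPM in the FNBP4 knockout. It had 144 and 135 CPM in the DDX5 knockout, 84.8 and 83.2 in the DDX17 knockout, 140.3 and 139.6 in the HDAC7 knockout and 65.7 to 113 in the controls. The difference was 1.96-fold (log2 0.97, SE 0.07, limma adjusted p 3.42e-07), with no overlap of the groups. FMN1, the formin that FNBP4 binds, had 13.2 and 9.79 CPM in the FNBP4 knockout, 5.68 and 5.84 in the DDX5 knockout, 4.75 and 5.76 in the DDX17 knockout, 5.99 and 7.09 in the HDAC7 knockout and 4.21 to 6.00 in the controls (1.93-fold, log2 0.95, SE 0.15, limma adjusted p 0.00186). The FMN1 call was lost without FNBP4 replicate 1 (log2 0.66, adjusted p 0.188), and in the authors' deposited table its RPKM was 2.53 in the FNBP4 knockout, 0.95 to 1.16 in the others and 0.98 in the controls. The authors' deposited table nonetheless gives FMN1 a log2 fold change of 0.14 for the FNBP4 knockout against the controls with an FDR of 0.807, so their own test made no call. The formins FMNL3 and FMNL1 fell, to 111 and 108 against 128 to 156 CPM and to 31.8 and 35.4 against 38.4 to 48.0 CPM (log2 -0.36 and -0.39, limma adjusted p 0.00894 and 0.0231). Both calls were lost without either FNBP4 library and without DDX17 replicate 2 (adjusted p up to 0.141 and 0.242), and that of FMNL1 also without DDX5 or DDX17 replicate 1.

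Of 23 actin, contractile and SRF target genes tested, 3 rose and none fell (13%, beside 3.00% of all genes; median 0.02). ANKRD1, a YAP and SRF target that codes for an ankyrin-repeat protein of the sarcomere and nucleus, had 1815 and 2076 CPM in the FNBP4 knockout, 1457 and 1762 in the DDX5 knockout, 819 and 959 in the DDX17 knockout, 1379 and 1638 in the HDAC7 knockout and 838 to 951 in the controls (log2 0.59, SE 0.06, limma adjusted p 5.99e-05). The DDX17 knockout was at the control level and the 3 other knockouts were above it, so the difference was largest against DDX17 (1.13) and was 0.28 against DDX5 (adjusted p 0.0597). ACTA2, smooth-muscle actin, and TPM1, a tropomyosin, had log2 differences of 0.28 each, and their FNBP4 libraries overlapped the other knockouts (839 and 676 against 474 to 715 CPM, and 2432 and 2808 against 1889 to 2463 CPM). Their limma adjusted p-values were 0.0291 and 0.0484. The ACTA2 call was lost without either FNBP4 library, without DDX5 replicate 2 and without either DDX17 library. The TPM1 call was lost without any of those or DDX5 replicate 1. With all 8 libraries kept, the TPM1 call was also lost with median-of-ratios scaling and with the looser read filter (limma adjusted p 0.0627 and 0.0585). It was lost too with limma's trend and with a GC and length trend removed (0.0749 and 0.0724).

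Called genes of RNA processing were few in number, and their shares are set beside the 3.00% of all genes called. Of 22 WW-domain and spliceosome partners tested 2 rose (9.09%, median 0.08), of 33 core spliceosome proteins 1 rose (3.03%, median 0.01), and of 29 SR proteins, their kinases and genes with detained introns 2 rose and 1 fell (10.3%, median 0.06). SRSF6, a splicing activator of the SR family, had 181 and 254 CPM in the FNBP4 knockout, 141 and 146 in the DDX5 knockout, 138 and 156 in the DDX17 knockout, 151 and 161 in the HDAC7 knockout and 132 to 147 in the controls (log2 0.53, SE 0.08, limma adjusted p 0.00124). Its call was lost without FNBP4 replicate 2 (log2 0.34, adjusted p 0.126), the higher of the pair. CLK4, a kinase of SR proteins, fell to 6.36 and 8.43 CPM against 7.66 to 14.8 (log2 -0.62, adjusted p 0.0385). The CLK4 call was lost without either FNBP4 library, either DDX5 library or DDX17 replicate 1, with an adjusted p of up to 0.389. SF3B1, the branch-point binding subunit of the U2 snRNP, and U2SURP, which is associated with it, had log2 differences of 0.35 and 0.33 (limma adjusted p 0.00743 and 0.0278), with 379 and 484 against 278 to 425 CPM and 90.8 and 154 against 60.8 to 134 CPM. These overlapped the other knockouts. Both calls were lost without either FNBP4 library, and that of U2SURP also without either DDX5 library or DDX17 replicate 2 (adjusted p up to 0.1 and 0.376). Without the DDX5 knockout the U2SURP difference was 0.17 (adjusted p 0.335).

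Of 28 DEAD- and DEAH-box helicases tested, 5 were called higher and none lower (17.9%, beside 3.00% of all genes), with a median of 0.13. DDX5 itself was low in its own knockout: it stood at 126 and 160.4 CPM there against 389 and 750.1 in the FNBP4 knockout, 485 and 650.3 in the DDX17 knockout and 392.1 and 557 in the HDAC7 knockout, and without the DDX5 knockout the log2 difference was 0.08 (adjusted p 0.733). DDX39A, an mRNA export helicase, was likewise low in the DDX5 knockout (37.0 and 50.4 CPM, against 92.6 and 87.9 in the FNBP4 knockout and 65.3 to 108 in the others), and its difference was 0.11 without that knockout. The DDX39A call was also lost without either FNBP4 library, DDX5 replicate 1 or DDX17 replicate 2 (adjusted p up to 0.161). DDX21, a nucleolar helicase, had 245 and 248 against 173 to 229.7 CPM. DDX46, a U2 snRNP helicase, had 91.9 and 123 against 69.4 to 106 CPM. DDX39B, an export helicase whose locus overlaps a readthrough gene, had 307 and 292 against 227 to 273 CPM. The log2 differences of these 3 were 0.31, 0.34 and 0.27 (limma adjusted p 0.0239, 0.0223 and 0.0385), and all 3 calls were lost without either FNBP4 library, without DDX5 replicate 2 and without DDX17 replicate 1 (adjusted p up to 0.501). DDX17 mRNA had 372 and 404 CPM in the FNBP4 knockout, 270.0 and 316 in the DDX17 knockout, 599 and 604 in the DDX5 knockout and 386 and 445 in the HDAC7 knockout, and did not differ from the mean of the 3 by the test (log2 -0.11, adjusted p 0.461).

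Some genes of cholesterol supply, and SCD of fatty acid synthesis, were lower in the FNBP4 knockout. Most of the cholesterol list was not called, and no list of fatty acid genes was tested. Sterol regulatory element-binding proteins (SREBF1 and SREBF2) are transcription factors that switch on lipid synthesis and uptake genes and are held back by INSIG1 when sterols are plentiful. Of 20 genes of cholesterol synthesis and uptake tested, 5 fell and none rose, which is 25% of the list beside 3.00% of all genes, and the list's median log2 difference was -0.12. SCD, the desaturase that makes monounsaturated fatty acids, was named as one of the lower genes of largest difference. It stood at 159 and 127 CPM in the FNBP4 knockout, 354 and 256 in the DDX5 knockout, 362 and 353 in the DDX17 knockout, 257 and 271 in the HDAC7 knockout and 358 to 430.1 in the controls, and fell 2.15-fold (log2 -1.10, SE 0.09, limma adjusted p 2.09e-06). The FNBP4 libraries were below all others.

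SREBF1 had 34.6 and 51.1 CPM in the FNBP4 knockout, 72.0 and 95.8 in the DDX5 knockout, 90.4 and 97.6 in the DDX17 knockout, 68.9 and 64.6 in the HDAC7 knockout and 69.9 to 129.9 in the controls (1.89-fold lower, log2 -0.92, SE 0.11, limma adjusted p 0.000132). INSIG1 had 26.5 and 26.3 CPM, against 37.2 to 54.9 in the other knockouts and 77.8 to 105 in the controls (log2 -0.76, SE 0.11, adjusted p 0.000913). All 6 other knockout libraries were thus also below the control range, and the FNBP4 libraries were lower still. SREBF2 stood at 114 and 127 CPM against 152 to 176 and 179 to 240.1 in the controls (log2 -0.44, SE 0.07, adjusted p 0.00293). The SREBF2 call was lost without FNBP4 replicate 1 (adjusted p 0.199). The synthesis enzymes FDFT1 and FDPS fell least, with 164 and 156 against 144 to 229 CPM and 163 and 169.8 against 164 to 258 CPM (log2 -0.28 and -0.33, adjusted p 0.0380 and 0.0390). Both overlapped the DDX17 knockout, which they differed from by 0.02 and -0.12, and both calls were lost without FNBP4 replicate 1, DDX5 replicate 2 or either DDX17 library (adjusted p up to 0.473 and 0.662), with FDPS at -0.18 without FNBP4 replicate 1. The call of FDFT1 was also lost without FNBP4 replicate 2 or DDX5 replicate 1. With all 8 libraries kept, the calls of FDFT1 and FDPS were lost with the looser read filter (limma adjusted p 0.0556 and 0.062). The other enzymes were not called, among them SQLE (-0.09) and HMGCS1 (0.23). MYLIP, a sterol-regulated ubiquitin ligase, was also lower, at 1.95 and 2.78 against 4.38 to 6.12 CPM (log2 -1.13, adjusted p 0.0132), though the controls stood at 2.72 to 4.03 and the call was lost without either FNBP4 library (adjusted p up to 0.207).

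A sterol response element of the letters TCACNCCAC was looked for in the RefSeq promoters (GRCh38.p14, 250 bases before to 50 after each start, both strands) because it is the binding motif of the proteins coded by SREBF1 and SREBF2, which both fell. It was found in 396 of 35116 promoters (1.13%) and in 1 of the 17 promoters at hand for the cholesterol list, SCD and SREBF1. The promoter that held it was SREBF2's, at chr22:41832962-41832990 with the motif in capitals, starting at -133 from the start site.
SREBF2 promoter: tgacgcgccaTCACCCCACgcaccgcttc
A match is a description of these letters and not a measured site.

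Other genes of large difference covered several functions. HAS3, a hyaluronan synthase, had 11.2 and 7.89 CPM in the FNBP4 knockout against 2.53 to 4.55 in the other knockouts and 2.62 to 4.85 in the controls (2.46-fold higher, log2 1.301, SE 0.18, limma adjusted p 0.000463). NAV3, a microtubule-binding neuron navigator, had 171 and 126 CPM in the FNBP4 knockout, 79.7 and 83.9 in the DDX5 knockout, 57.2 and 67.4 in the DDX17 knockout, 70.4 and 89.2 in the HDAC7 knockout and 45.8 to 62.6 in the controls (1.98-fold higher, log2 0.99, SE 0.11, limma adjusted p 8.73e-05). For NAV3 the authors' deposited table gives an RPKM of 71.53 in the FNBP4 knockout, 14.36 to 19.07 in the others and 9.34 in the controls. This is a wider gap than in junction reads, but the authors' log2 fold changes do not show it. Against the controls these were 1.47 in the FNBP4 knockout and 0.53, 0.21 and 0.50 in the DDX5, DDX17 and HDAC7 knockouts. SDSL, related to serine dehydratase, had 17.9 and 14.3 against 3.78 to 11.01 CPM (log2 1.07), and was lowest in the DDX17 knockout. POLN, a DNA polymerase whose locus overlaps HAUS3, had 11.04 and 10.2 against 3.72 to 7.03 CPM (log2 1.11), and TRAPPC6A, a vesicle-trafficking subunit, 10.1 and 8.16 against 2.91 to 6.89 CPM (log2 0.92). CFAP54, a cilium gene, had 6.43 and 6.91 against 2.51 to 4.55 CPM (log2 0.85), and there the controls, at 5.23 to 7.25, were level with the FNBP4 knockout. The calls of POLN, TRAPPC6A and CFAP54 were lost without FNBP4 replicate 1 (adjusted p 0.0630, 0.0567 and 0.243).

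On the lower side, BMF, a pro-apoptotic protein of the BCL2 family, had 3.25 and 3.37 CPM in the FNBP4 knockout, 5.37 and 7.29 in the DDX5 knockout, 13.4 and 15.5 in the DDX17 knockout, 6.50 and 7.94 in the HDAC7 knockout and 14.3 to 29.5 in the controls (2.63-fold lower, log2 -1.39, SE 0.19, limma adjusted p 0.000463). Its DDX17 libraries were near the controls and the DDX5 and HDAC7 libraries lay between. CSF1R, the receptor of a macrophage growth factor, had 2.66 and 1.96 CPM against 4.46 to 7.29 and 4.59 to 7.44 in the controls (log2 -1.40, SE 0.23, adjusted p 0.00186), and its call was lost without FNBP4 replicate 2 (adjusted p 0.0627). Of the 7 immune markers only CSF1R and CD68 had reads enough to be tested, and CSF1R was the 1 called. The other immune markers had 0 to 9 reads in each library. OLFML2A, an extracellular matrix protein, had 2.01 and 3.48 against 4.03 to 12.5 CPM (log2 -1.35), and -1.02 without the DDX17 knockout (adjusted p 0.0530). AZIN2, an antizyme inhibitor, had 4.67 and 5.01 against 7.59 to 11.1 CPM and 14.8 to 21.9 in the controls (log2 -0.81), and CRYAB, a small heat-shock protein, 7.98 and 7.84 against 11.1 to 17.1 CPM, within the control range of 7.36 to 11.6 (log2 -0.80). The repressor HIC1, at 2.08 and 3.37 against 3.93 to 5.76 CPM, and the myosin kinase MYLK2, at 3.96 and 3.59 against 4.93 to 8.01 CPM, had log2 differences of -0.82 and -0.80 with adjusted p-values of 0.0493 and 0.0300. The AZIN2, CRYAB, HIC1 and MYLK2 calls were lost without either FNBP4 library (adjusted p up to 0.144, 0.0928, 0.5 and 0.426), and those of HIC1 and MYLK2 also without a DDX5 or DDX17 library: HIC1 without any of the 4, MYLK2 without DDX5 replicate 1 or DDX17 replicate 2.

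HDAC7 mRNA was 139 and 196 CPM in the FNBP4 knockout, 170.2 and 174 in the HDAC7 knockout, 144 and 213.03 in the DDX5 knockout, 167 and 182 in the DDX17 knockout and 170.5 to 235 in the controls, a log2 difference of -0.07 (limma adjusted p 0.746). Of 16 class IIa deacetylases, MEF2 factors and co-repressors tested, 1 rose and 2 fell (18.8%, beside 3.00% of all genes; median -0.05). HDAC5 had 66.7 and 72.7 CPM in the FNBP4 knockout, 87.3 and 96.4 in the DDX5 knockout, 88.4 and 90.9 in the DDX17 knockout, 131 and 119.2 in the HDAC7 knockout and 93.4 to 118.9 in the controls (log2 -0.53, SE 0.08, limma adjusted p 0.00120), with no overlap. NCOR1, a co-repressor scaffold, had 111 and 178 against 121 to 245 CPM (log2 -0.31, adjusted p 0.0281). KLF2, a MEF2-driven transcription factor, had 14.3 and 9.41 CPM in the FNBP4 knockout and 5.92 and 2.61 in the HDAC7 knockout, against 7.35 to 11.02 in the DDX5 and DDX17 knockouts (log2 0.71, adjusted p 0.0343), and without the HDAC7 knockout its difference was 0.29 (adjusted p 0.206). The NCOR1 and KLF2 calls were also lost without either FNBP4 library, DDX5 replicate 1 or either DDX17 library (adjusted p up to 0.242 and 0.389).

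The stress and growth lists had 1 or 2 called members each, or none. Called members made up 11.8% of the integrated stress response list, 6.67% of p53 targets and 8% of mitotic genes, beside 3.00% of all genes. Among 17 genes of the integrated stress response, the amino acid transporter SLC7A5 rose (466 and 420.1 against 296 to 458 CPM, with 180.1 to 207 in the controls, log2 0.36) and the transcription factor DDIT3 fell (3.38 and 3.26 against 3.99 to 8.92 CPM, log2 -0.89), so the list moved in no single direction (median 0.01). The calls of both were lost without FNBP4 replicate 2 (log2 0.32 and -0.29, adjusted p 0.122 and 0.744), and that of DDIT3 also without DDX5 replicate 2 or either DDX17 library. Among 30 p53 targets GADD45A and DRAM1 rose (log2 0.47 and 0.42), and both were lowest in the DDX17 knockout, without which their differences were 0.21 and 0.25 (adjusted p 0.387 and 0.320). Both calls were also lost without FNBP4 replicate 2, and that of DRAM1 without FNBP4 replicate 1, DDX5 replicate 2 or either DDX17 library. Among 25 mitotic genes CENPF and TOP2A fell (log2 -0.47 and -0.32, median of the list -0.10), and against the DDX5 knockout their differences were -0.17 and 0.05. CENPF had 33.6 and 95.5 CPM against 39.2 to 152, and TOP2A 291 and 332 against 271 to 520.3. The call of each was lost without FNBP4 replicate 2 (adjusted p 0.0848 and 0.314), and that of TOP2A also without FNBP4 replicate 1, DDX5 replicate 1 or either DDX17 library. None of 27 DNA replication genes was called.

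Of 20 hypoxia and glycolysis genes 2 fell and none rose (10%, beside 3.00% of all genes; median -0.10). VEGFA, the vascular growth factor, had 38.9 and 53.2 CPM in the FNBP4 knockout, 56.7 and 68.8 in the DDX5 knockout, 78.5 and 125 in the DDX17 knockout, 56.8 and 77.4 in the HDAC7 knockout and 75.9 to 100.4 in the controls (log2 -0.71, SE 0.09, limma adjusted p 0.000267). NDRG1, a hypoxia-induced growth regulator, had 23.7 and 19.9 CPM against 26.7 to 41.4 and 31.04 to 36.9 in the controls (log2 -0.69, adjusted p 0.00105). Neither overlapped. Among 18 collagens and matrix genes 1 rose and 1 fell (11.1%, beside 3.00% of all genes). POSTN, periostin, was called higher, at 9.74 and 14.3 CPM against 0.965 and 3.21 in the HDAC7 knockout and 6.12 to 11.8 in the other 2. It was still below the controls at 21.3 to 24.9, and without the HDAC7 knockout its difference was 0.27 (limma adjusted p 0.243). COL6A3, a collagen VI chain, had 3.57 and 7.62 against 5.34 to 12.5 CPM (log2 -0.68), a call lost without either FNBP4 library, DDX5 replicate 1 or either DDX17 library (adjusted p up to 0.267). Among 14 immediate-early genes the phosphatases DUSP5 and DUSP1 rose (log2 0.42 and 0.38), and among 13 NF-kB targets TNFAIP3 rose (log2 0.75). Called members were 14.3% and 7.69% of these lists. These 3 calls were lost when any single FNBP4, DDX5 or DDX17 library was left out (adjusted p up to 0.624), and DUSP5 was at 0.28 without FNBP4 replicate 1. Without the HDAC7 knockout the TNFAIP3 difference was 0.44 (adjusted p 0.143), and without the DDX17 knockout those of DUSP5 and DUSP1 were 0.25 and 0.20 (adjusted p 0.385 and 0.463). No member was called among 16 unfolded protein response genes, 15 interferon genes, 10 plasminogen and serpin genes, 20 cytosolic ribosomal proteins or 13 neighbours of FNBP4 on chromosome 11, and the median of the neighbours was -0.10.

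**Figure D4:**
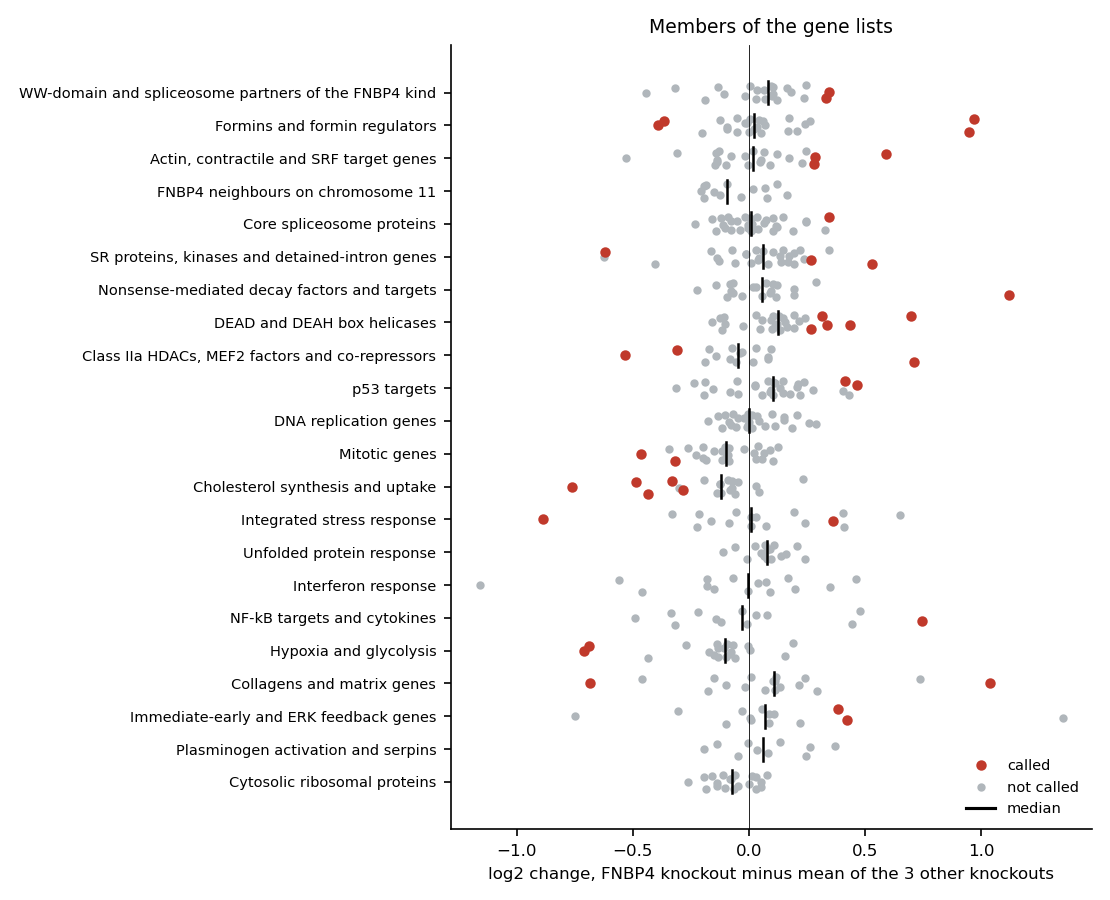
Log2 differences of the FNBP4 knockout from the mean of the 3 other knockouts for the members of 22 gene lists, with called genes in red, others in grey and the median of each list as a black bar. Most members lie near 0, and cholesterol synthesis and uptake is the list with the most called lower, 5 of 20.

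No splicing event was called. Of 258760 introns, exons, microexons and splice sites tested with limma, none passed an adjusted p of 0.05, the smallest being 0.135, and 16133 (6.23%) had an unadjusted p under 0.05. Of introns below that unadjusted level, 3030 were less and 2105 more retained in the FNBP4 knockout, and the median log2 retention ratio over all introns was -0.07. The FNBP4 knockout had the lowest share of exon-intron reads of the 4 knockouts in each replicate, as given above, and the part of this in the intron values was not tested. The events of smallest p are given as values. An exon of KLF6, a zinc-finger transcription factor (chr10:3780106-3780229), was included at 96.71% and 97.5% in the FNBP4 knockout and at 100% in all 6 others. An exon of POGK (chr1:166847494-166847592) was included at 100% in both FNBP4 libraries and at 91.96 to 97.18% in the others. An exon of HLA-B, whose reads may be shared with its paralogs, was included at 97.82% and 98.74% against 100%. The intron of MORN1 at chr1:2387530-2388238 was retained at 0 and 0.87% against 9.09 to 23.74% and 12.07 to 17.14% in the controls. Introns of RGS4 and FLNA were retained at 0 and 0.05% against 0.25 to 1.37%, and at 0 and 1.19% against 0.15 to 8.02%.

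A pair of larger shifts was picked after the values were seen, and neither was called. An exon of CBX6, a chromobox subunit of Polycomb complexes (chr22:38871902-38871945, 44 bases), was included at 85.92% and 86.55% in the FNBP4 knockout, at 97.92 to 99.25% in the other knockouts and at 97.31 to 100% in the controls (difference -12.5 percentage points, unadjusted p 3.46e-06, limma adjusted p 0.152). An exon of SNHG1 (chr11:62854888-62854938, 51 bases) was included at 24.95% and 47.65% in the FNBP4 knockout, 49.93% and 69.03% in the DDX5 knockout, 75.25% and 85.85% in the DDX17 knockout, 48.26% and 76.19% in the HDAC7 knockout and 77.05 to 90.66% in the controls (unadjusted p 0.000185, limma adjusted p 0.270). Both FNBP4 libraries were below all 6 others, with replicate 1 the lower in every knockout. Of all 258760 events tested, 464 in 377 genes had both FNBP4 libraries beyond the 6 others and a mean difference of at least 10 percentage points. None of these was called, and how many would separate by the order of the libraries alone was not tested.

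**Figure D5:**
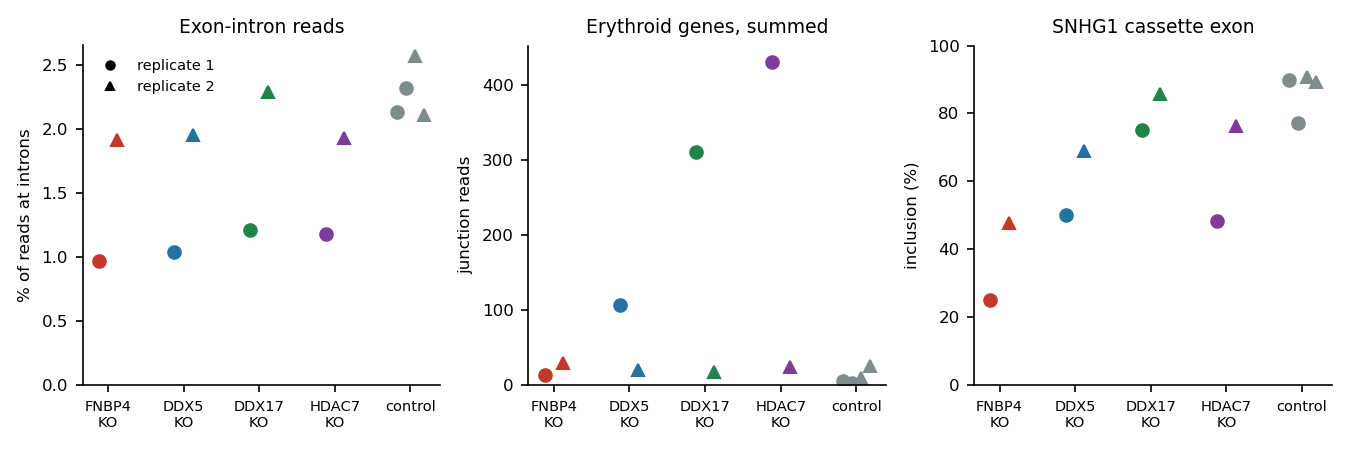
Per library of the 4 knockouts (KO) and the controls, from left to right: exon-intron reads as a percent of reads at introns, summed junction reads of erythroid genes, and percent inclusion of the SNHG1 cassette exon; circles are replicate 1 and triangles replicate 2. The first replicates of the knockouts have the fewer exon-intron reads, the erythroid sum peaks at 431 in the first HDAC7 knockout library, and SNHG1 exon inclusion is lowest in the FNBP4 knockout.

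FNBP4's own transcript gave 34 events to test, 6 introns, 16 exons, 8 alternative 3′ and 4 alternative 5′ splice sites, and none was called. An unadjusted p under 0.05 was given to 11 of them, beside 6.23% of all events, but 4 of the 11 are parts of a single event, and 2 of those have no inclusion read in any library, so that their p follows depth through the pseudocount. The intron just downstream of the guide exon, chr11:47751037-47751142, was retained at 1.75% and 2.48% in the FNBP4 knockout, at 0 to 0.81% in the other knockouts and at 0 to 1.47% in the controls (unadjusted p 0.000813, limma adjusted p 0.338), on at most 1.54 retained-intron reads in a knockout library and 2.03 in a control. A shorter listed form of the guide exon, chr11:47751172-47751290, was included at 100% and 95.45%, and the next exon, chr11:47750916-47750958, at 100% and 97.94%, against 100% in all 6 others and the controls. Skipped reads at these exons thus appeared in replicate 2 of the FNBP4 knockout and in no other library listed here. The same was seen at the exon before the guide exon, chr11:47752916-47753102, at 100% and 97.02%. It was also seen at an exon further off, chr11:47732537-47732670, at 100% and 95.55%, so the pattern was not particular to the guide site.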

How the data were processed

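The members and gene lists were chosen with earlier results of these data known. The deposited per-library table gives vast-tools inclusion in percent and, in its quality strings, the authors' reads behind each value; 2 further per-sample columns of it were not analysed here. A second deposited table gives the authors' RPKM, log2 fold changes and FDR (adjusted p-values) per hgRNA with replicates combined; Salmon 1.10 and edgeR are named without roles per the submitters' processing notes. The aligner is not given in the sources used here. Of 192950 introns, 192907 (99.98%) had the coordinates of a GENCODE v29 intron (GRCh38).

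Spliced reads were read from the deposited quality strings and summed per gene over its introns, so genes without introns have no value, and reads grow with the number of introns. Genes with about 10 reads at median depth in at least 2 libraries were kept. These junction counts, which are not whole-gene counts, were tested with limma 3.58.1 (R 4.3.3) with voom weights, TMM factors computed here, a coefficient per knockout and the replicate number as a block, with Benjamini-Hochberg adjustment over 11452 genes and a threshold of 0.05. Replicate numbers paired the libraries: for all 6 pairs of knockouts, deviations from the group mean correlated between same-numbered libraries at 0.467 to 0.697. Events needed 20 reads in each of the 8 libraries, were tested as log2 inclusion to exclusion with a pseudocount of 1, and were called from 10 percentage points. Depth was 15080988 to 20233610 junction reads. Genes are named by rule: the 4 targets, up to 12 called genes in each direction with FNBP4 libraries beyond the other 6 and a log2 CPM averaging 2 or more, and called members of 27 lists; a few genes within these counts are not reported here by name. Alternatives covered the block, scaling, filters, a GC and length trend, the libraries in the fit and leaving libraries out. The procedures were tested on simulated data. Python 3.11.15 was used for parsing and figures.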

Additional observations from a re-analysis of the deposited data

How the results depend on the processing

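The calls rest on duplicates, and their number moved with the fit. Without the replicate block, 2 genes were called against the other 3 knockouts, 0 against DDX5, 9 against DDX17 and 0 against HDAC7; the numbers pair the libraries, as given under the processing. With all libraries in the fit the counts were 135, 87, 292 and 30 in the same order, and with a GC and length trend removed with the replicate block 606, 606, 1336 and 359. With no filter beyond 1 read in 2 libraries, the DDX5 and HDAC7 counts were 209 and 107. Leaving out 1 library at a time gave 96 to 1049 calls against the other 3 knockouts, 43 to 1030 against DDX5, 159 to 1686 against DDX17 and 64 to 711 against HDAC7. Without both DDX17 libraries the count was 144, and without both HDAC7 libraries 1111. Of the alternatives chosen after seeing the data, all libraries but replicate 1 or 2 of the knockouts gave 4 and 6 calls, with the same sign for 342 and 344 of the 344, and leaving out the first DDX17 and HDAC7 replicates gave 1461. The sign was compared in the same knockout libraries that gave the 344 calls. Its agreement was therefore largely set in advance and is no independent support for them. The cause of these shifts in the counts was not tested. The weight that limma gave to the spread of all genes also differed between fits. It was 4.42 prior degrees of freedom without the block, 14.94 in the main fit and infinite without the first DDX17 and HDAC7 replicates. The part of this in the counts was not tested. With limma's trend in place of voom weights, 149 of 331 calls were higher and 182 lower. The FNBP4 mRNA difference lay between -0.05 and -0.25 and was called under no alternative. No splicing event was called under any alternative run. Of 58 named called genes none reversed, and 16 stayed called in all 16 settings other than the fits without the block, with all libraries or on single replicates. All of these fits reuse libraries that gave the 58 calls, so agreement of sign was largely set in advance and is no independent support. Without the block 56 of the 58 calls were lost, and with all libraries in the fit 29. On single replicates most were lost too.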

Other observations

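Genes without introns have no junction reads and enter no comparison above. In the authors' deposited table the intronless histone gene H2AC19, chosen after its values were seen, had an RPKM of 165.79 in the FNBP4 knockout, 411.15, 392.52 and 445.54 in the DDX5, DDX17 and HDAC7 knockouts and 247.77 in the controls. The same table, the authors' deposited table, gives a log2 fold change of -0.66 against the controls with an FDR of 0.890 for the FNBP4 knockout, and 0.59, 0.59 and 0.79 with FDRs of 0.837, 0.941 and 0.764 for the DDX5, DDX17 and HDAC7 knockouts, so none was called there. The RPKM values are for combined replicates, without a spread.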
